A study of Mus musculus with 12 samples.

Results

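The genes described here are 7 genes of glucose use and oxidative metabolism, found by their symbols among the 100 genes of a focused hypoxia array: Eno1, Gpi1, Hk2, Slc2a4, Gapdh, Cat and Ucp2. Of these, 1 gene, Gapdh, is also among the 100 genes of a companion angiogenesis array. The arrays measured fracture callus, the tissue that bridges a broken bone, from mice labelled HET for HIF-1a (partial deficiency of HIF-1alpha, in the words of the series title) and from WT mice. All animals had a fixed closed fracture of 1 femur, and callus was taken 7, 10 and 14 days later. RNA of 3 animals was pooled in equal amounts per group, and every genotype was measured once per day on each array type, which makes 12 arrays and leaves no value below with a replicate. The labels give no age, sex, strain or construction of the HET allele, and they do not say whether both array types received RNA of the same pool. In such pooled callus RNA, fewer cells of a type and less RNA per cell cannot be told apart.

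Glycolysis breaks glucose down in the cytoplasm without oxygen. Glucose enters through transporters such as the insulin-responsive GLUT4 (Slc2a4), is trapped by hexokinase 2 (Hk2), is rearranged by glucose phosphate isomerase (Gpi1), and passes through glyceraldehyde-3-phosphate dehydrogenase (Gapdh) and enolase 1 (Eno1). HIF-1, whose oxygen-regulated subunit is encoded by Hif1a, is a known activator of many glycolytic genes under low oxygen. Catalase (Cat) removes hydrogen peroxide, and uncoupling protein 2 (Ucp2) is a carrier of the inner mitochondrial membrane that is known to limit the formation of reactive oxygen species.

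Because HIF-1 is known to bind a short DNA element, the 250 bases before the annotated gene start are given for the 4 genes that differed at least 2-fold between HET and WT on some day (described below), from the RefSeq promoter table (GRCm38.p6). Capitals mark the core letters of the hypoxia response element, ACGTG or GCGTG, or their reverse complements CACGT and CACGC, searched on both strands. The motifs do not overlap each other in these windows.
Ucp2, chr7:100493108-100493357, plus strand: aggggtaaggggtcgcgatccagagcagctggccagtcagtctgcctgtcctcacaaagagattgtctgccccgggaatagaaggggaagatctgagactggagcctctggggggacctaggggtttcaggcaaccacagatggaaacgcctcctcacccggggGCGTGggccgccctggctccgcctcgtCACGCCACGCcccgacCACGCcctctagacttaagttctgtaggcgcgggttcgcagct
Eno1, chr4:150236458-150236707, plus strand: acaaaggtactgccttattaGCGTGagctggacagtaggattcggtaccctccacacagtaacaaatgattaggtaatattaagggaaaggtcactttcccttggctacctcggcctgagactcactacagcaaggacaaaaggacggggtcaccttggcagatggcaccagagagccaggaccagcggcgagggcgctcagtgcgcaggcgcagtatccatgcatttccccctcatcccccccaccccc
Gpi1, chr7:34230337-34230586, minus strand: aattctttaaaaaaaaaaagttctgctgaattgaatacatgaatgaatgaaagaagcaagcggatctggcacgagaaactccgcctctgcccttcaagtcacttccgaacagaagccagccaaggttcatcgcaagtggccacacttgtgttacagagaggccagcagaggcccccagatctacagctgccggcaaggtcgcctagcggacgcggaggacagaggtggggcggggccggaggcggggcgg
Cat, chr2:103485154-103485403, minus strand: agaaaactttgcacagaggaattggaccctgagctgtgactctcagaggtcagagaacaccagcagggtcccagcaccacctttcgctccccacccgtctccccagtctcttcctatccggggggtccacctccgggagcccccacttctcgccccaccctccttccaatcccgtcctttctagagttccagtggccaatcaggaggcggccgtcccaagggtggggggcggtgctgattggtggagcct
The Ucp2 window held 4 matches and this Eno1 window 1, while the Gpi1 and Cat windows held 0. The other 2 annotated Eno1 starts had 2 matches each, and Hk2 and Gapdh had 2 each as well. Counted by annotated start, 6 of 8 windows of these genes (75%) had a match, against 38.6% of all 32851 promoters in the table. Eno1 has several of these starts, and 2 of its windows overlap. Slc2a4 had no entry among these promoters. Counted by gene, 4 of the 6 genes with an entry had a match at some start. No share over all genes stands beside that count, so no enrichment is read from it. A match describes letters and shows no binding.

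The brightness of the arrays and of their control spots differed widely. Over the 6 hypoxia arrays the median spot density ran from 4.83 to 926, and between 20 and 56 of the 100 genes were above background, that is, brighter than the array's brightest control spot of PUC18 plasmid DNA or of nothing (Blank). That control stood at 391, 805 and 29.6 on the arrays labelled HET at days 7, 10 and 14, against 12.7, 99.5 and 128.5 on the WT arrays. The array labelled HET at day 7 also had a raised floor, with its lowest spot at 248, against 0 on the WT array. On 4 of the 6 hypoxia arrays the brightest control was the same Blank spot, the one printed next to the Gapdh spots. Col1a1, the main collagen gene of bone, stood between 41175 and 49757 on all 6. The 2 bone markers of the angiogenesis arrays were dimmer at day 7. Sparc read 5865, 38891 and 48388 in HET and 402, 47551 and 46131 in WT at days 7, 10 and 14. Spp1 was above background on the 4 later arrays only, so the share of bone RNA at day 7 is not settled by Col1a1. None of the markers listed for cartilage or muscle is on either array. Hif1a itself read 5509, 18939 and 4766 on the hypoxia arrays labelled HET, against 137, 30822 and 15394 in WT, so at day 7 it ran against the label. The densities on the angiogenesis arrays had the same order of genotypes at each day, with 25140, 6924 and 6574 in HET against 8037, 11449 and 11008 in WT. Most genes of that array type shared this order, since 2%, 87% and 92% of all 100 were lower in HET at days 7, 10 and 14. After quantile normalization Hif1a stood there at 15.29, 10.87 and 11.14 log2 units in HET and 14.94, 11.07 and 11.14 in WT.

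Across the 42 readings of the 7 genes on the hypoxia arrays, 22 were above background, and 16 of 36 without Gapdh, against 40.7% of all readings of the 100 genes. Gapdh was above background on 6 of 6 arrays, Cat on 5, Ucp2 on 4, Hk2 on 3, Eno1 on 2, and Gpi1 and Slc2a4 on 1 each. Of the glycolytic enzymes and the transporter, Gapdh therefore was the only one read on every array. With 1 threshold for all 6 arrays, the brightest control of any, 12 readings remained, those of Gapdh on 6 arrays and of Cat and Ucp2 on 3 each. Only Gapdh came near the ceiling of the scans (45701, which is 90% of the brightest spot of the series), and it stood there in HET at day 10 and in WT at days 10 and 14.

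**Figure D1:**
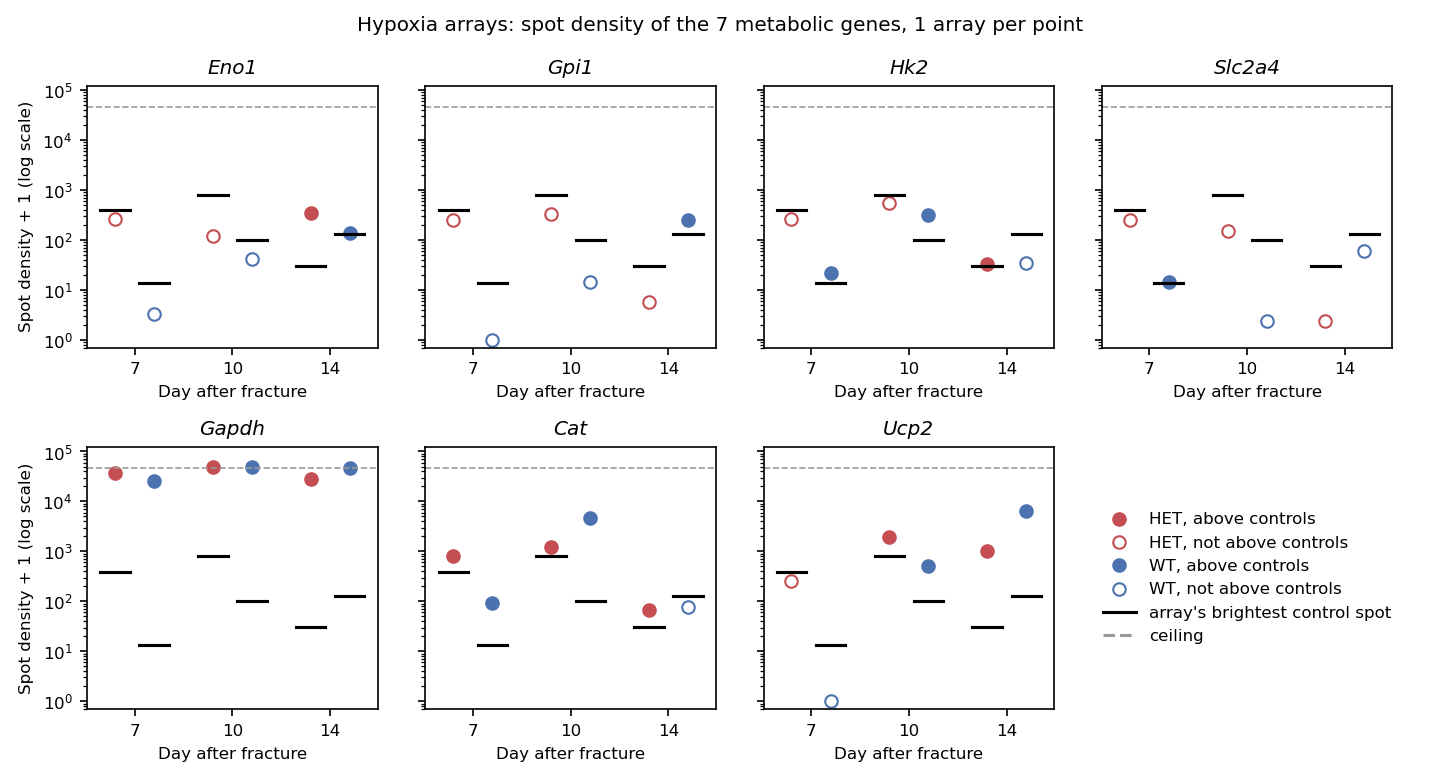
Spot density plus 1 (log scale) of each gene on the hypoxia arrays at days 7, 10 and 14, HET left of WT, 1 array per point. Filled points lie above the array's brightest control spot (black bar), open points do not, and the dashed line is the ceiling at 45701. Gapdh is filled on 6 of 6 arrays and Ucp2 on all but the 2 day 7 arrays, while Slc2a4 is filled on 1.

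The transporter gene Slc2a4 gave almost no readable signal. Its densities were 252, 150 and 1.33 on the arrays labelled HET at days 7, 10 and 14, against 13.3, 1.33 and 58.6 in WT. Only the WT reading at day 7 was above background, at 1.05 times the brightest control. Slc2a4 is known mainly from muscle and fat, and Mylpf, a muscle myosin light chain gene chosen after its values were seen, was bright on all 6 arrays, at 15174, 49167 and 8512 in HET and 29944, 49185 and 13310 in WT.

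Hk2, whose enzyme commits glucose to the cell, lay close to background. It read 256, 554 and 32.6 on the arrays labelled HET, against 20.6, 312 and 33.3 in WT. The WT readings at days 7 and 10 were 1.63 and 3.13 times the brightest control, and the HET reading at day 14 was 1.10 times. No day had Hk2 above background in both genotypes. At day 10, with quantile normalization, the HET minus WT difference was at most -0.41 log2 units, although HET had the higher density, and without normalization the pair gave no bound.

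Gpi1 was above background on 1 array, WT at day 14. Its densities were 254, 328 and 4.66 on the arrays labelled HET, against 0, 13.3 and 245 in WT. At day 14 it therefore was lower in HET, with a HET minus WT difference of at most -1.20 log2 units after normalization and at most -2.27 without it. The HET reading at that day lay below all 6 control spots of its array.

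Eno1, which acts late in glycolysis, was above background only at day 14, in both genotypes. It read 261, 120 and 348 on the arrays labelled HET, against 2.33, 41.3 and 135 in WT. At day 14 the HET density was 11.7 times its brightest control and the WT density 1.05 times, so the WT value sat at the background limit. The density in HET was 2.57 times that in WT, and the normalized HET minus WT difference was 1.86 log2 units. It ranged from 1.22 to 2.31 over 4 scalings (quantile, reference genes, array median, none). The reference genes were Gapdh, Ppia, Rpl13a and Actb, a set partly at the ceiling. On the hypoxia arrays Actb was at the ceiling on all but WT at day 7. Gapdh was there on 3 arrays and Ppia on both day 10 arrays. Rpl13a ran from 12.7 (WT at day 7) to 10190 (HET at day 10). In the authors' deposited table, Eno1 at day 14 stood at 0.00703 in HET and 0.00271 in WT as a ratio to Actb. That ratio is computed from the same densities and is no separate measurement. Eno1 and Gpi1, of the same pathway, thus lay on opposite sides of 0 at day 14, each on 1 pair of arrays.

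Gapdh was read by 2 spots per array, which agreed closely, with a pooled standard deviation of 0.057 log2 units over the 8 pairs of spots below the ceiling on both array types. On the hypoxia arrays the mean densities were 36487, 49613 and 28630 on the arrays labelled HET, against 25531, 48699 and 47420 in WT. The array labelled HET was the brighter one at day 7 and the dimmer one at day 14, and at day 10 both arrays were at the ceiling, which leaves no fold. The normalized difference of HET minus WT was 0.74 log2 units at day 7 and at most -0.25 at day 14, a limit because WT was at the ceiling there. No genotype difference can be read from these single pairs, and the sign at both days depended on the scaling, since reference gene scaling without Gapdh gave -0.18 at day 7 and median scaling gave 0.36 at day 14.

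On the angiogenesis arrays Gapdh followed another course. Its densities were 46228, 9847 and 30925 on the arrays labelled HET, against 41600, 12418 and 23697 in WT, and only HET at day 7 was at the ceiling. Day 10 was the lowest day in both genotypes here and the day at the ceiling on the hypoxia arrays, and at day 14 HET was the brighter genotype here and the dimmer one there. Ppia, another reference gene, also had day 10 as its lowest day on the angiogenesis arrays and its highest on the hypoxia arrays, in both genotypes, with 10575 in HET and 11640 in WT on the angiogenesis arrays at day 10, against 49131 and 48995 on the hypoxia arrays. The reference gene Rpl13a had that order in HET only. In WT it read 450, 1417 and 1560 on the angiogenesis arrays and 12.7, 2170 and 3167 on the hypoxia arrays. Actb was at the ceiling on every angiogenesis array. The normalized HET minus WT differences of Gapdh on the angiogenesis arrays were 0.00, 0.00 and 0.97 log2 units at days 7, 10 and 14, where the zeros mean that Gapdh held the same rank on both arrays. The difference between array types was not tested, because each type was normalized on its own. As a day effect over both genotypes, Gapdh was lower at day 10 than at day 7 on the angiogenesis arrays (-4.40 log2 units, SE 0.60, limma adjusted p = 0.0049), where 32.3% of 96 genes passed, and lower at day 14 than at day 7 (-3.21, SE 0.60, limma adjusted p = 0.019), where 25% passed. Without normalization the differences were -1.99 and -0.70, with limma adjusted p-values of 0.13 and 0.63, so both calls rest on the scaling. With reference gene scaling the first was -1.45 (limma adjusted p = 0.26). HET at day 7 was at the ceiling in these fits.

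**Figure D2:**
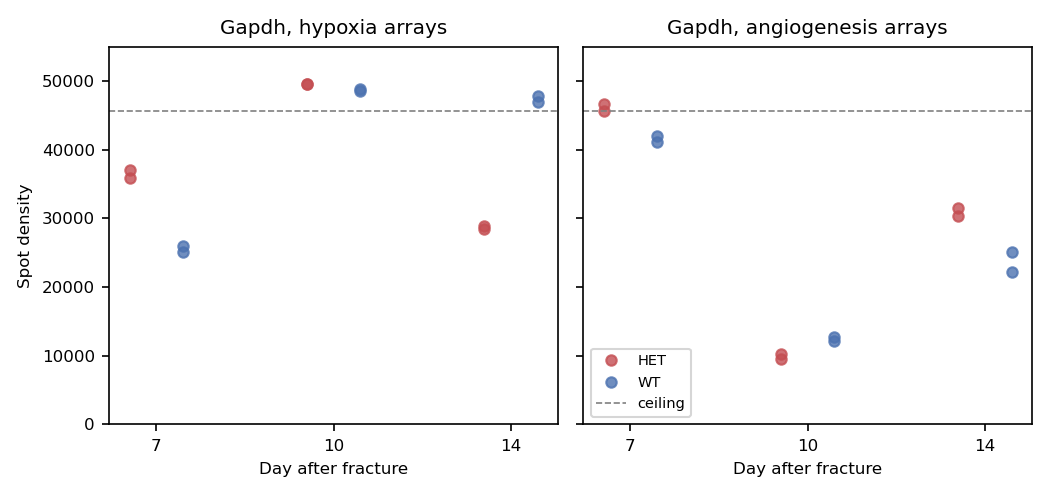
Density of each of the 2 Gapdh spots by day on the hypoxia arrays (left) and the angiogenesis arrays (right), with HET left of WT at each day and the ceiling of 45701 dashed. Day 10 is at the ceiling on the left and lowest on the right, between 9515 and 12658.

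Cat had its highest density at day 10 in both genotypes, on the arrays that were also the brightest as a whole, with median densities of 263, 926 and 23.3 in HET at days 7, 10 and 14 and 4.83, 184 and 80.7 in WT. It read 812, 1227 and 66.9 on the arrays labelled HET, against 90.9, 4734 and 74.6 in WT, and all but the WT reading at day 14 were above background. At day 7 the density on the array labelled HET was 8.94 times that in WT, and at day 10 the WT density was 3.86 times that in HET. The day 7 reading on the array labelled HET was 2.08 times its brightest control, on the array with the raised floor. After quantile normalization the HET minus WT difference was -0.30 log2 units at day 7 and -1.64 at day 10. At day 10 it was below 0 in all 4 scalings, between -4.10 and -1.64, whereas at day 7 the 3 scalings other than quantile put it above 0, up to 2.33. The authors' deposited ratios, computed from the same densities, had Cat at 0.0116 on the array labelled HET at day 7 against 0.00205 in WT. At day 10 they had 0.0241 in HET against 0.0957 in WT. At day 14 Cat was above background only in HET. There it was at least 0.36 log2 units higher after quantile normalization, although its density was lower, at 66.9 against 74.6 in WT. Without normalization or with reference gene scaling the pair gave no bound.

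Genes of other cell types were also highest on these bright day 10 arrays, and their part in the Cat values was not tested. Fabp4, a fat cell marker, read 1393, 43925 and 388 on the arrays labelled HET and 1217, 44652 and 816 in WT. Lep, the other fat marker on the hypoxia array, was above background on 0 of 6 arrays, and the summed fat markers ranged from 412 to 44184 in HET and from 870 to 44663 in WT. Il1b, the only listed macrophage marker on the hypoxia array, read 256, 21855 and 30.0 on the arrays labelled HET, against 1.33, 8428 and 143 in WT.

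Ucp2 was not above the brightest control on either day 7 array and was above it on all 4 later arrays. It read 256, 1906 and 998 on the arrays labelled HET, against 0, 505 and 6366 in WT. In density its highest day was day 10 in HET and day 14 in WT. After quantile normalization it was day 14 in both, with 7.46 log2 units at day 10 and 10.19 at day 14 in HET, and 7.26 and 13.10 in WT. The HET density at day 10 was 3.77 times that in WT, and at day 14 the WT density was 6.38 times that in HET. The densities thus crossed between the days, but at day 10 the HET array was brighter as a whole, with a median density of 926 against 184 in WT. At day 14 the normalized HET minus WT difference was -2.91 log2 units, and it stayed between -2.91 and -1.56 over the 4 scalings. At day 10 it was 0.20, with 3 scalings above 0, up to 1.85, and median scaling at -0.30. The authors' deposited ratios, computed from the same densities, were 0.0378 in HET and 0.0102 in WT at day 10, and 0.0202 and 0.129 at day 14. Among macrophage markers, whose part in the Ucp2 values was not tested, Il1b was lower in HET at day 14, while Msr1 on the angiogenesis array of that day was the higher one in HET, at 11617 against 5529. The 6 endothelial markers of the angiogenesis arrays had lower densities in HET than in WT at day 10 and at day 14, 6 of 6 on both days, as had 87% and 92% of all 100 genes of that array type, with sums from 803 to 54880 in HET and from 175 to 69191 in WT over the 3 days. At day 14, 44 of the 100 genes were above background on the HET array of that type and 79 on the WT array, and the part of these markers in the Ucp2 values was not tested either.

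**Figure D3:**
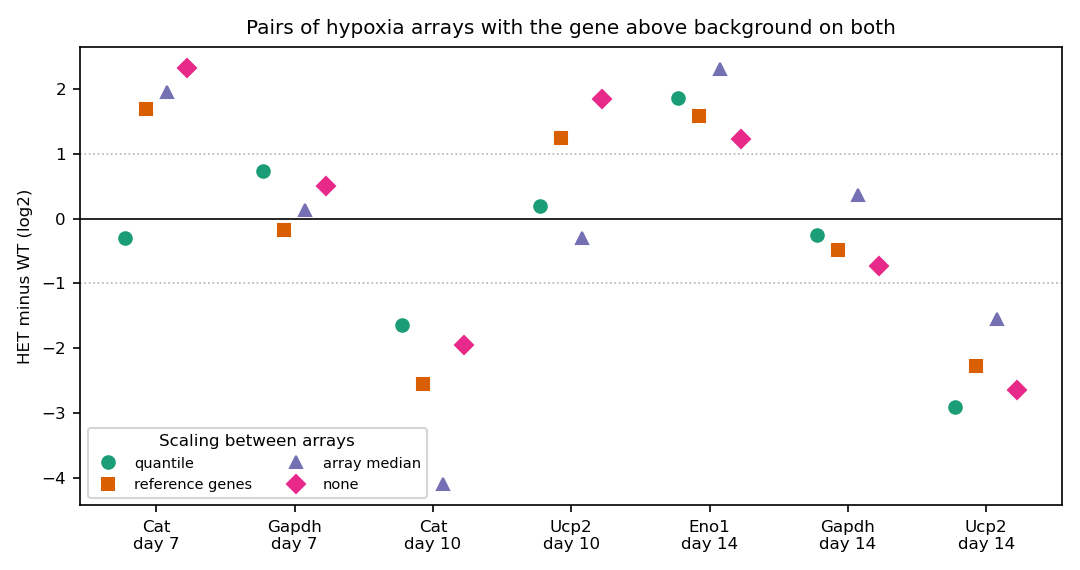
HET minus WT difference (log2) of the genes and days with a reading above background on both hypoxia arrays and not both at the ceiling, under 4 scalings between arrays; dotted lines mark 2-fold, and Gapdh at day 14 is a limit, with WT at the ceiling. Cat at day 10, Eno1 at day 14 and Ucp2 at day 14 keep their side of 0 in all 4, between -4.10 and -1.64, 1.22 and 2.31, and -2.91 and -1.56.

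The scalings also moved the whole array. At day 10 the median HET minus WT difference of all 100 genes was 0.05 log2 units with quantile normalization, 1.06 with reference gene scaling, -0.49 with median scaling and 1.66 without normalization. Relative to these medians Ucp2 at day 10 lay within 0.20 log2 units of all genes in each scaling, while Cat lay more than 1.5 log2 units below them in each. At day 14 the 4 medians ran from -0.44 to 0.64, and at day 7 from -0.30 to 0.34.

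Read together by day, 0 of the 2 genes with a value differed at least 2-fold at day 7, against 26.3% of the 19 such genes of the array. At day 10 it was 1 of 3 (Cat, lower in HET), against 27.1% of 48 genes in either direction and 14.6% lower. At day 14, 1 of 5 was higher in HET (Eno1) and 2 were lower (Gpi1 and Ucp2), against 15.6% higher, 17.8% lower and 33.3% in either direction among 45 genes. The medians of the genes with a value were 0.22, -0.41 and -0.25 log2 units at days 7, 10 and 14, against 0.00, 0.05 and 0.03 over all genes with a value. The -0.41 is the bound of Hk2, and the -0.25 is the limit of Gapdh, whose sign changed with median scaling. Neither is a measured centre of the group, and the values over all genes include bounds as well.

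Over the 3 days, the genotype effect was fitted with limma on the 6 hypoxia arrays with day as a block, so that the days stand in for repeats and the error includes any change of the genotype difference between days. By that test 0 of the 7 genes passed at an adjusted p of 0.05, with adjusted p-values from 0.75 to 0.94, and 0% of all 73 genes above background on at least 1 array did. At an unadjusted p under 0.05 the limma count was 3 of 73 genes (4.11%) and 0 of the 7. Estimates are given for the genes above background on at least 4 arrays. Cat differed by -0.34 log2 units (95% confidence interval -2.23 to 1.56), Ucp2 by -0.82 (-3.43 to 1.78) and Gapdh, at the ceiling on 3 of the 6 arrays, by 0.29 (-0.63 to 1.21). Single days decided the sign of the first 2, since without day 10 Cat was at 0.32 and without day 14 Ucp2 was at 0.22. Both values rest in part on readings below background, of Cat in WT at day 14 and of Ucp2 on both day 7 arrays. The confidence intervals include differences larger than 2-fold in at least 1 direction for each gene. For Gapdh on the angiogenesis arrays the estimate was 0.32 (-0.92 to 1.57), with a limma adjusted p of 0.91, where 0% of 96 genes passed and 2 (2.08%) had an unadjusted p under 0.05.

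For the course of healing, the same fit compared days over both genotypes. Between days 7 and 14, 11% of the 73 genes passed (8 genes) and 0 of the 7 did. Ucp2 at day 14 was 6.33 log2 units above day 7 (SE 1.04, limma adjusted p = 0.059), with the later day higher in both genotypes. Its difference was 5.12 with reference gene scaling (limma adjusted p = 0.016), 5.40 with median scaling (8.73e-05) and 6.41 without normalization (0.087), so the call depended on the scaling and the direction did not. Since Ucp2 was below background on both day 7 arrays, the sizes depend on the offset and are no bounds. Cat at day 14 was below day 7 by the same fit (-3.99, SE 0.76, limma adjusted p = 0.075), and by -1.46 without normalization (0.61).

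Between days 7 and 10, 0% of 73 genes passed in limma, with 14 genes (19.2%), Cat among them, at an unadjusted p under 0.05. Cat had a difference of -3.27 log2 units (SE 0.76, limma adjusted p = 0.19) after quantile normalization and of 3.20 (SE 1.22, 0.12) without normalization. The densities themselves were higher at day 10 in both genotypes. Quantile normalization gave the WT reading of 90.9 at day 7 a log2 value of 11.22 and that of 4734 at day 10 a value of 8.62, with 27 genes above background on the first array and 56 on the second. Ucp2 lay 2.05 log2 units higher at day 10 (SE 1.04, limma adjusted p = 0.37), and 5.07 higher without normalization (0.047). Between days 10 and 14, 16.4% of the genes passed (12 of 73) and 0 of the 7, with Ucp2 at 4.28 (SE 1.04, limma adjusted p = 0.083) and Cat at -0.72 (SE 0.76, 0.55). With reference gene scaling Cat differed by -4.21 (limma adjusted p = 0.017). Ucp2 differed by 4.0 with median scaling (limma adjusted p = 0.0052), 1.79 with reference gene scaling (0.17) and 1.34 without normalization (0.46). Without normalization Ucp2 was lower at day 14 than at day 10 in HET (-0.90) and higher in WT (3.59).

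**Figure D4:**
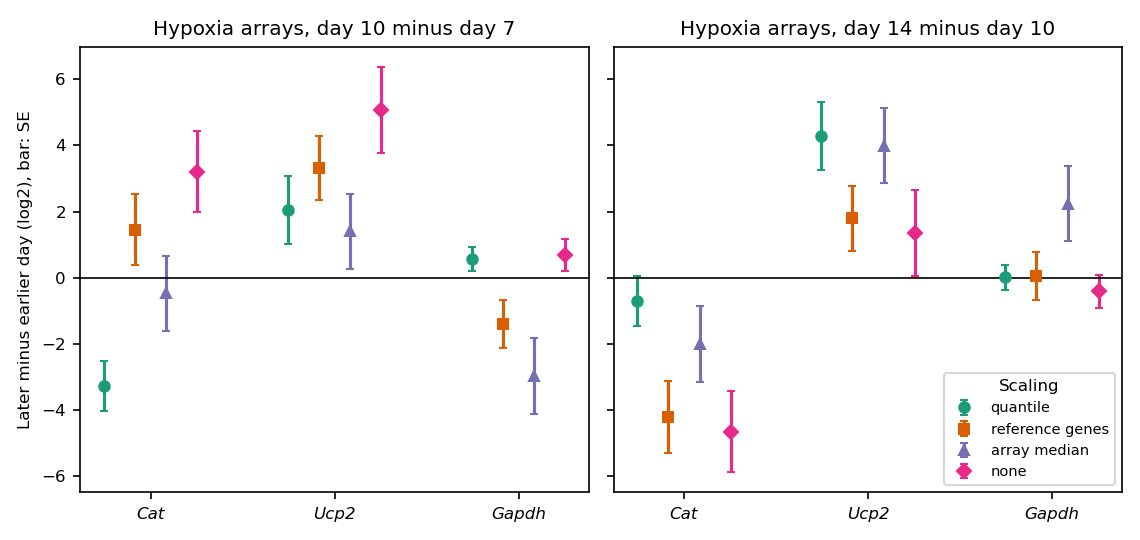
Later minus earlier day (log2, bars SE from limma over 6 hypoxia arrays, 2 residual degrees of freedom per gene) for Cat, Ucp2 and Gapdh under 4 scalings. From day 7 to 10 Cat lies at -3.27 with quantile normalization and at 3.20 without normalization, while Ucp2 lies above 0 in all 8 estimates of both panels.

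The other genes of oxygen handling on the arrays, from a list of 22, were few and mostly dim, and 0 of the 33 listed further genes of glycolysis and glucose use is on either array. Of 5 on the hypoxia array, Sod2, the mitochondrial superoxide dismutase gene, was above background on 3 arrays, Hmox1 (heme oxygenase 1) and Ppara (a regulator of fatty acid oxidation) on the day 10 arrays only, and Gpx1 (glutathione peroxidase 1) and Nos2 (inducible nitric oxide synthase) on none. Sod2 read 261, 2199 and 12.3 on the arrays labelled HET, against 2.0, 495 and 145 in WT, and like Cat it was highest on the bright day 10 arrays in both genotypes. Its HET minus WT difference was 0.47 log2 units at day 10, and at day 14, when only WT was above background, it was at most -0.48. The day 10 differences of Hmox1 and Ppara were -0.14 and 0.74. Nos3, the endothelial nitric oxide synthase gene on the angiogenesis array, differed by -0.48 at day 10 and -0.45 at day 14. By the limma genotype test 0 of the 4 fitted genes passed.

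The candidates were 28 other genes with a reading above background on 4 or more hypoxia arrays, and those whose normalized values followed the same course over the 6 arrays most closely were named by Pearson's r, as a description. For Cat they were Ece1 (r = 0.90), Sumo2 (0.85) and Cdc42 (0.68), for Ucp2 Plod3 (0.85), Rpl37a (0.83) and Rpl13a (0.80), and for Gapdh Snrp70 (0.98), Il6st (0.85) and Actb (0.83). Gapdh was at the ceiling on 3 of the 6 arrays and Actb on 5, so their likeness says little. Cdc42 was at the ceiling on both arrays of every day, and Sumo2 on both arrays of day 10. Their likeness to Cat therefore says little as well, and r for Cat and Cdc42 was 0.46 without normalization. The arrays share one normalization and differ in brightness, which both enter these values.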

How the data were processed

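Per the labels' protocols, RNA pooled from 3 animals was labelled with an AmpoLabeling-LPR kit, and per the file headers each array is a GEArray Q membrane. The authors deposited an average spot density per array, a linear intensity with no local background column. Wherever the authors' deposited ratio holds a value, it equals the density minus the array's lowest density, over the same for Actb. Densities were corrected here with normexp (limma 3.58.1, R 4.3.3; offset 25.9, or 10% of the median density of gene spots), taken to log2, averaged per gene and quantile normalized within an array type. Genotype and day effects were fitted with limma (two-sided, Benjamini-Hochberg over all genes above background on at least 1 array, threshold 0.05), with 2 residual degrees of freedom per gene. The code was tested on simulated data. Pairs of single arrays were given without a test and called at 2-fold (1 log2 unit). Where only 1 array of a pair read a gene above background, the difference is a bound: the other array then takes the gene's own value or that of its dimmest readable gene, whichever is higher. A further file of the HET day 7 angiogenesis sample, headed as WT, was not used. All 7 symbols are current in GRCm38.p6. The genes and lists were chosen with earlier results of these data known. Named were the 7 genes, the listed pathway genes and markers, and the 3 genes closest to each well measured gene.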

Additional observations from a re-analysis of the deposited data

Results flagged for a closer look

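With quantile normalization, 3 genes of the hypoxia arrays had HET minus WT values on both sides of 0 on different days. The difference between days was not tested, since each group has 1 array, and other scalings removed or moved most of these crossings. Ucp2 stood at 0.20 log2 units at day 10 and -2.91 at day 14, but at -0.30 and -1.56 with median scaling. Cat stood at -0.30 at day 7 and -1.64 at day 10. At day 14 its normalized value was higher in HET by at least 0.36, although its density was lower, at 66.9 against 74.6 in WT. Without normalization or with reference gene scaling, Cat had no bound at day 14. With the 3 other scalings Cat at day 7 was above 0, between 1.68 and 2.33. Gapdh stood at 0.74 at day 7 and at most -0.25 at day 14, where WT was at the ceiling, but at -0.18 and -0.48 with reference gene scaling and at 0.13 and 0.36 with median scaling.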

How the results depend on the processing

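Precision is limited by 1 array per group, by the control spots and by the ceiling. The genotype fit pairs HET with WT within a day, and without day as a block it also called 0 genes; the labels number no replicates to pair otherwise. The cause of the changes below was not tested. Without normalization, with median scaling and with reference gene scaling, limma called 38, 18 and 26 genes between days 7 and 10 on the hypoxia arrays, against 0, and 33, 20 and 39 between days 10 and 14, against 12. With reference gene scaling it called 69 on the angiogenesis arrays between days 7 and 10, against 31. Of the 7 genes, those at least 2-fold apart at day 7 numbered 1 under each of these 3 scalings, against 0, and at day 10 they numbered 2 without normalization or with reference gene scaling, against 1. With 1 background threshold for all arrays 1 was left at day 14, against 3, and without the Blank spot next to the Gapdh spots, an alternative chosen after seeing the data, 2 were found at day 7 (Hk2 and Slc2a4, bounds of -1.91 and -1.29). The genotype estimate of Gapdh turned to -0.54 with median scaling, -0.48 with reference gene scaling and -0.065 without normalization, and that of Cat to 0.32 without day 10 and 0.093 without normalization. That of Ucp2 turned to 0.22 without day 14. The Cat and Ucp2 values without a day rest in part on readings below background. Between days 7 and 10, Cat turned to 1.46 with reference gene scaling and 3.20 without normalization, and Gapdh to -2.97 with median scaling (limma adjusted p = 0.043) and -1.40 with reference gene scaling. Between days 7 and 14, Gapdh turned to -0.74 and -1.36 under the same settings, and between days 10 and 14 to -0.42 without normalization. The genotype test called 0 genes on either array type under every alternative run. Offset, background correction and the filter on dim genes changed no direction. Of the counts, 73 stayed within 1.5 times and 14 did not.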
